A study of Homo sapiens with 12 samples.

Results

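The 9 genes described here encode variant histones, several of which have chaperones of their own that place them in chromatin. These histones come from single genes outside the clusters of replication-dependent histone genes. They are the H2A variants H2AX, H2AZ1, H2AZ2, MACROH2A1 and MACROH2A2, the H3 variants H3-3A, H3-3B and CENPA, and the linker histone H1-10. The members were taken by name, as the rows of a table of read counts per gene whose Entrez identifier maps to these current symbols, and 9 of 9 were found among its 23434 rows.

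Newly made RNA was measured by EU-seq, in which cells take up 5-ethynyl-uridine (EU) for a short time and the labelled RNA is coupled to biotin, captured and sequenced. The cells were U2OS-MycER, a human bone tumour line with a fusion of Myc and the oestrogen receptor that 4-hydroxytamoxifen (OHT) switches on. The 12 libraries fall into 4 groups of 3, namely a non-targeting shRNA (shNT), the same with OHT (shNT+OHT), an shRNA against the transcription elongation kinase CDK12 (shCDK12), and that shRNA with OHT (shCDK12+OHT). OHT was given at 300 nM for 40 h, and all 4 groups received doxycycline at 1 µg/mL to switch on the shRNA. The cells of every group were then held in mitosis with 100 ng/mL nocodazole for 8 h, collected by shake-off and followed for 12 h after release, with EU at 0.5 mM in the last 2 h. For each library 40 µg of human and 10 µg of murine labelled RNA were mixed before capture. The sources used here do not say whether the 3 libraries of a group came from separate cultures, so p-values measure the spread between these libraries, which may be technical. Levels are relative, set against the other counts of the same library. In RNA from many cells a smaller number of cells in one cell-cycle stage and less RNA per cell cannot be told apart.

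Library totals ranged from 1928373 to 5227279 counts in shNT, from 1251695 to 3666406 in shNT+OHT, from 4142570 to 9400045 in shCDK12 and from 5378438 to 10447836 in shCDK12+OHT. Pearson correlations of log2 levels across genes lay between 0.91 and 0.99 within groups, lowest in shNT+OHT, and between 0.76 and 0.93 across groups. The targeted gene was checked first, on the CPM scale, on which the TMM-normalised counts of a library are set to the same total. CDK12 gave 323, 289 and 300 CPM in shNT, 434, 356 and 400 in shNT+OHT, 293, 277 and 298 in the libraries labelled shCDK12, and 215, 208 and 218 in those labelled shCDK12+OHT. Without OHT the groups overlapped (log2 fold change -0.08, SE 0.08, edgeR adjusted p = 0.445), while with OHT all 3 labelled libraries were lower (log2 fold change -0.88, SE 0.11, edgeR adjusted p = 0.000107). RNA interference acts on finished transcripts, so labelled new RNA is a limited check, and the shRNA groups are named throughout only as their labels name them. Of 10 mesenchymal and osteoblast markers, FN1, VIM, SPARC, RUNX2 and COL1A1 had a median over the 12 libraries of at least 72.8 CPM, while TWIST1 had a median of 0 and COL1A2 of 0.252 CPM. Their sum ran from 1559 to 1640 CPM in shNT, 1038 to 1138 in shNT+OHT, 427 to 435 in the libraries labelled shCDK12 and 597 to 612 in those labelled shCDK12+OHT, so each comparison below also sets apart groups that differ in these genes. Markers of other cell types were summed too. For 6 epithelial genes, mostly CLDN4, the sum ran from 37.6 to 47.5 CPM in shNT and 23.9 to 38.6 in shNT+OHT. It ran from 56.2 to 63.2 CPM in the libraries labelled shCDK12 and 110 to 123 in those labelled shCDK12+OHT, without overlap between the shRNAs. This sum follows CLDN4, and other genes of the list went the other way. For shCDK12 against shNT CLDN4 was at 0.60 and CDH1 at -0.71 (edgeR adjusted p = 0.00208 and 0.0475). Upon OHT in the libraries labelled shCDK12 CLDN4 was at 1.27 and EPCAM at -1.60 (edgeR adjusted p = 2.01e-08 and 5.98e-05). Medians of KRT5, KRT14 and ESRP1 were at most 0.719 CPM. Sums lay between 13.1 and 31.6 CPM for 6 leukocyte genes, mostly CD68, and between 0.825 and 13.2 for 5 endothelial genes. What part these markers have in the results was not tested.

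Most histone protein is made in S phase from genes without introns whose transcripts end in a stem-loop. Variant histones replace it at particular places: H2A.Z at the borders of promoters, H3.3 in transcribed chromatin and at telomeres, CENP-A at the centromere and macroH2A in silent domains such as the inactive X chromosome. H2AX is spread through the genome, and its phosphorylated form marks DNA breaks. The genes of H2AX and H1-10 have no introns either, as their exons span the whole gene (1592 and 1516 bases). CENP-A is made mainly in G2 and loaded in early G1, whereas H3.3 is made and exchanged throughout the cycle.

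Levels of different genes were compared per kilobase of annotated exon, as means over the 12 libraries. H3-3B was the highest at 244 CPM per kb, followed by H2AZ1 at 191, H2AX at 93.5, H1-10 at 88.7, CENPA at 53.3, MACROH2A1 at 39.3 and H2AZ2 at 27.8. The lowest were MACROH2A2 at 3.96 and H3-3A at 1.76 CPM per kb, with as few as 5 and 4 reads in one library. This order depends on the exon lengths used, such as 871 bases for H2AZ1 and 7003 for H2AZ2. In plain CPM the mean of H2AZ2 was 195 and that of H2AZ1 was 166. The annotation used for counting is not given in the sources used here. Reads of some members cannot be placed with certainty, because they have near-identical processed copies elsewhere. In the hg38 genome another exact copy existed for 25.8% of 50-base windows in the exons of H3-3A, for 11.7% in H3-3B, 11.7% in H2AZ1, 5.95% in H2AZ2 and 0.324% in H2AX, and for 0 windows in the remaining members. Values of H3-3A are therefore uncertain in level as well as thin in reads. The summed level of the 9 genes ran from 1430 to 1511 CPM in shNT, 1311 to 1626 in shNT+OHT, 1638 to 1868 in the libraries labelled shCDK12 and 1361 to 1513 in those labelled shCDK12+OHT, with H3-3B the largest single part.

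**Figure D1:**
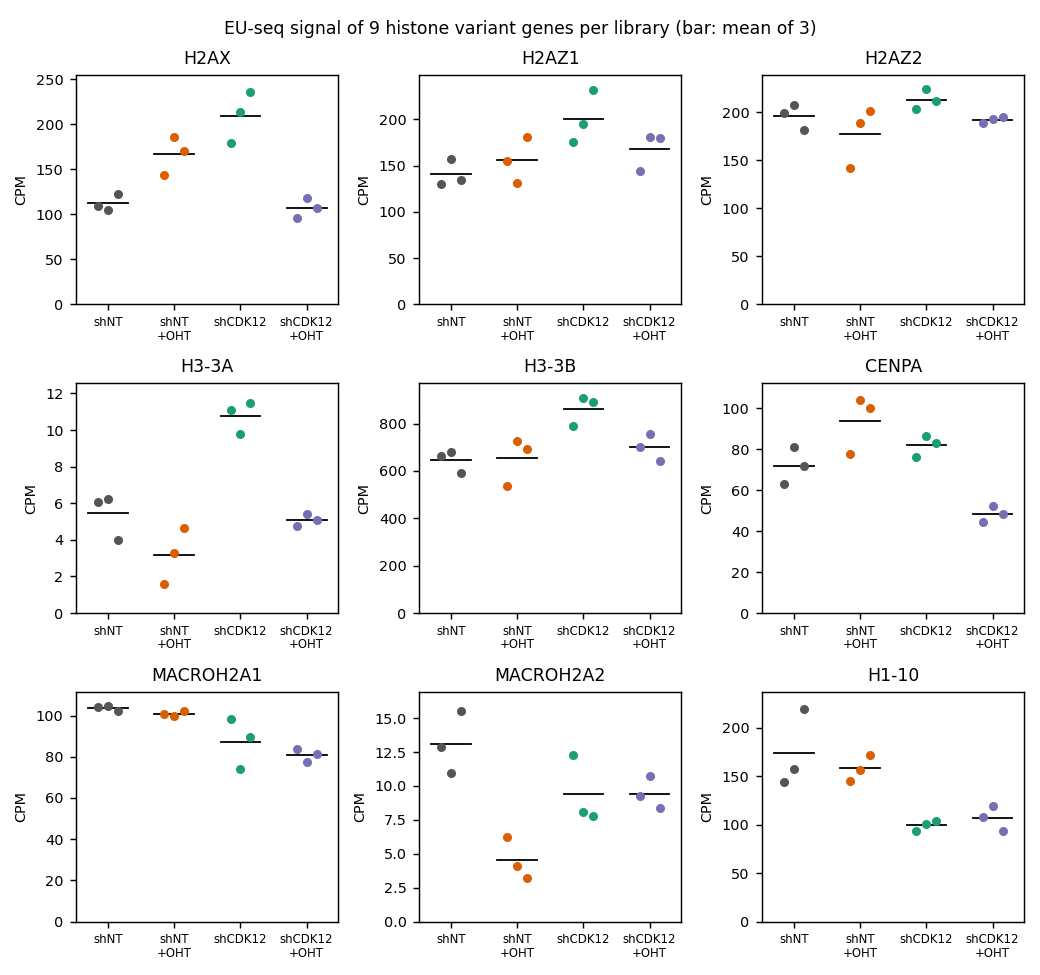
Each panel plots the normalised level (CPM, linear axis from 0) of 1 variant histone gene in the 12 libraries, with 1 point per library, groups along the x axis and a bar at the mean of 3. H2AX was lowest in shNT and shCDK12+OHT (means of 112 and 107 CPM), CENPA was lowest in shCDK12+OHT (48.3 CPM) and MACROH2A2 was lowest in shNT+OHT (4.53 CPM).

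H2AX, the H2A variant that is phosphorylated around DNA breaks, gave 109, 105 and 123 CPM in shNT and 144, 186 and 171 CPM in shNT+OHT. In the libraries labelled shCDK12 it gave 179, 213 and 236 CPM, and in those labelled shCDK12+OHT 95.5, 118 and 107 CPM. Each of the 3 OHT libraries was above the shNT libraries under the control shRNA and below the untreated libraries under the other, so OHT went with more H2AX in one arm and less in the other. The means were 112 ± 9.34 (SD, n = 3), 167 ± 21.0, 209 ± 28.7 and 107 ± 11.4 CPM, and of neighbours in the order of levels, shCDK12+OHT with shNT and shNT+OHT with shCDK12 overlapped. In edgeR's test H2AX rose upon OHT in shNT (log2 fold change 0.56, SE 0.14, adjusted p = 0.0157). That call was lost without shNT replicate 1 (0.54, edgeR adjusted p = 0.0799), without shNT replicate 2 (0.50, edgeR adjusted p = 0.109) and once trends of gene length and GC content were removed from each library (0.28, edgeR adjusted p = 0.189). Against shNT the libraries labelled shCDK12 were higher by 0.91 (SE 0.11, edgeR adjusted p = 7.49e-08), and upon OHT H2AX fell in that arm by 0.97 (SE 0.10, edgeR adjusted p = 6.74e-07). Where both arms had OHT it was lower in the libraries labelled shCDK12+OHT, at -0.61 (SE 0.14, edgeR adjusted p = 0.00382), but not once the length and GC trends were removed (-0.22, edgeR adjusted p = 0.265). The responses to OHT differed between the arms by -1.54 (SE 0.18, edgeR adjusted p = 1.13e-06), and by -1.10 with the trends removed. H2AX shares annotated positions on the same strand with DPAGT1, which lay between 15.2 and 23.8 CPM, with a smallest edgeR adjusted p of 0.180 over the same tests.

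H2AZ1 and H2AZ2 encode the 2 forms of H2A.Z, which differ in a few residues. H2AZ1 gave 130, 157 and 134 CPM in shNT, 154, 131 and 181 in shNT+OHT, 175, 194 and 231 in the libraries labelled shCDK12, and 144, 181 and 179 in those labelled shCDK12+OHT. Its only separation was between shNT and shCDK12, where all 3 labelled libraries were higher (log2 fold change 0.51, SE 0.10, edgeR adjusted p = 0.000176). Upon OHT its groups overlapped in both arms, with 0.15 in shNT (edgeR adjusted p = 0.495) and -0.25 in the libraries labelled shCDK12 (edgeR adjusted p = 0.0530). The latter passed with DESeq2 (-0.31, adjusted p = 0.0165), with edgeR under upper-quartile normalization (adjusted p = 0.0124), with no filter (adjusted p = 0.0149) and with a replicate block (adjusted p = 0.0147). It did not pass with all 12 libraries in one fit (edgeR adjusted p = 0.131) or after thinning to the smallest total (edgeR adjusted p = 0.229). Nor did it with length and GC trends removed (edgeR adjusted p = 0.0785). With 1 library left out its edgeR adjusted p ran from 0.00765 to 0.315. H2AZ2 had the smallest spread of group means of the 9, with 200, 208 and 182 CPM in shNT, 143, 189 and 201 in shNT+OHT, 203, 224 and 212 in the libraries labelled shCDK12, and 189, 193 and 196 in those labelled shCDK12+OHT. Its highest group mean was 1.20 times its lowest, and its log2 fold changes lay between -0.16 and 0.14. Of 5 tests 0 passed in the main edgeR setting, at adjusted or unadjusted p, and 1 with DESeq2, the change upon OHT in the libraries labelled shCDK12 (-0.21, DESeq2 adjusted p = 0.0261). That change also passed with edgeR under upper-quartile normalization (-0.21, adjusted p = 0.0244) and after thinning (-0.26, adjusted p = 0.0384). It did not with no filter (edgeR adjusted p = 0.186) or a replicate block (edgeR adjusted p = 0.141). For shCDK12 against shNT H2AZ2 passed with edgeR under upper-quartile normalization (0.20, adjusted p = 0.0488).

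H3-3A and H3-3B encode the same H3.3 protein. H3-3B gave 661, 680 and 592 CPM in shNT, 539, 728 and 692 in shNT+OHT, 788, 907 and 893 in the libraries labelled shCDK12, and 700, 757 and 642 in those labelled shCDK12+OHT. The libraries labelled shCDK12 stood above every other, and the other groups overlapped. In edgeR's test H3-3B was 0.42 higher in them than in shNT (SE 0.08, adjusted p = 6.16e-05) and fell by 0.30 upon OHT (SE 0.08, adjusted p = 0.00446), while in shNT the change upon OHT was 0.01 (adjusted p = 0.956). H3-3A was also highest in the libraries labelled shCDK12, with 6.09, 6.25 and 4.01 CPM in shNT, 11.1, 9.76 and 11.5 in the libraries labelled shCDK12, and 4.75, 5.42 and 5.08 in those labelled shCDK12+OHT. Those values rest on 8 to 93 reads, and the 1.57, 3.30 and 4.64 CPM of shNT+OHT on 5, 4 and 16 reads. H3-3A was higher in the libraries labelled shCDK12 than in shNT (log2 fold change 0.91, SE 0.28, edgeR adjusted p = 0.00656) and fell by 1.06 upon OHT in that arm (SE 0.21, edgeR adjusted p = 0.000486). In the first of these fits it passed the filter of a mean normalised count of 32 only through the higher group, with 49.7 against 25.1 in shNT, and with no filter the value was 0.92 (edgeR adjusted p = 0.00905). In the remaining tests it was under the filter. With no filter it changed by -0.81 upon OHT in shNT (edgeR adjusted p = 0.457).

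CENPA, the H3 variant that specifies the centromere, gave 63.0, 81.2 and 71.7 CPM in shNT, 77.7, 104 and 100 in shNT+OHT, 76.0, 86.4 and 83.1 in the libraries labelled shCDK12, and 44.3, 52.1 and 48.4 in those labelled shCDK12+OHT. The last group lay below all 9 other libraries, and the other 3 groups overlapped each other. Upon OHT CENPA fell in the libraries labelled shCDK12 by 0.76 (SE 0.10, edgeR adjusted p = 8.24e-06), and with OHT in both arms it was at -0.93 (SE 0.15, edgeR adjusted p = 0.000545). In shNT the change upon OHT was 0.37 (SE 0.17, edgeR adjusted p = 0.139), and 0.51 without shNT+OHT replicate 1 (edgeR adjusted p = 0.0116). The difference between the arms was -1.13 (SE 0.20, edgeR adjusted p = 0.000103). Markers of G2 and mitosis were lowest in the same libraries: the sum of 20 such genes ran from 3538 to 4079 CPM in shNT, 3794 to 4453 in shNT+OHT, 3811 to 4150 in the libraries labelled shCDK12 and 2220 to 2381 in those labelled shCDK12+OHT. Upon OHT in the libraries labelled shCDK12, 20 of 20 of these markers fell, with a median of -0.83, beside 21.6% of all genes lower. The fall was not theirs alone, as 15 of 20 markers of G1/S and S phase were lower too. For shCDK12 against shNT 10 of the G2 and mitosis markers were higher and 3 lower, beside 29.8% and 32.8% of all genes, where CENPA did not pass. The part of these markers in the CENPA value was not tested.

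MACROH2A1, whose product carries a large macro domain and is enriched in silent chromatin, varied little, with 104, 105 and 102 CPM in shNT and 101, 99.8 and 102 in shNT+OHT. It gave 98.4, 74.3 and 89.4 CPM in the libraries labelled shCDK12 and 83.8, 77.3 and 81.3 in those labelled shCDK12+OHT, below the control shRNA in every library. Neither difference passed, at -0.26 without OHT (SE 0.11, edgeR adjusted p = 0.0503) and -0.30 with it (SE 0.12, edgeR adjusted p = 0.0576). With DESeq2 the first was -0.22 (adjusted p = 0.134) and the second -0.35 (adjusted p = 0.0229). With no filter their edgeR adjusted p were 0.0611 and 0.116, and with a replicate block the first passed (edgeR adjusted p = 0.0282). PITX1-AS1 overlaps it on the opposite strand and was lower in the same libraries, at -0.76 (edgeR adjusted p = 0.00026) and -0.95 (edgeR adjusted p = 0.000605). Reads of such a pair can be told apart only by strand, and whether the counting used it is not given in the sources used here. MACROH2A2, the second macroH2A gene, gave 12.9, 10.9 and 15.5 CPM in shNT from 55, 56 and 31 reads, and 6.27, 4.12 and 3.19 CPM in shNT+OHT from 20, 5 and 11 reads. In the libraries labelled shCDK12 it gave 12.3, 8.08 and 7.77 CPM, and in those labelled shCDK12+OHT 9.24, 10.7 and 8.34 CPM. The shNT+OHT libraries were below all 9 others. This gene was under the filter in both pairwise fits that hold them, and with no filter it was at -1.50 against shNT (SE 0.43, edgeR adjusted p = 0.00902), and at 1.07 in shCDK12+OHT against shNT+OHT (edgeR adjusted p = 0.0268). In the fit of 12 libraries its responses to OHT differed by 1.53 between the arms (SE 0.42, edgeR adjusted p = 0.00558), where it passed the filter with a mean of 40.3 normalised counts through the other 3 groups and had 20.0 in shNT+OHT. The same term with no filter was 1.53 (edgeR adjusted p = 0.00572). AIFM2 overlaps it on the opposite strand and had 51.1, 51.1 and 48.1 CPM in shNT and 55.5, 52.8 and 32.5 in shNT+OHT, which overlapped. It was lower in the libraries labelled shCDK12 than in shNT (-0.38, edgeR adjusted p = 0.0187) and rose upon OHT in that arm (0.32, edgeR adjusted p = 0.0278). Between the arms with OHT AIFM2 was at 0.08 (edgeR adjusted p = 0.760), and in the interaction at 0.45 (edgeR adjusted p = 0.128).

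H1-10, a linker histone that binds DNA between nucleosomes, gave 144, 157 and 220 CPM in shNT, 145, 157 and 172 in shNT+OHT, 93.8, 101 and 104 in the libraries labelled shCDK12, and 108, 119 and 93.8 in those labelled shCDK12+OHT. All 6 libraries of the CDK12 shRNA were below the 6 of the control shRNA, and within each arm the groups with and without OHT overlapped. It was lower without OHT by -0.79 on the log2 scale (SE 0.12, edgeR adjusted p = 6.10e-06) and with OHT by -0.54 (SE 0.13, edgeR adjusted p = 0.00605). The second call was lost with length and GC trends removed, at -0.12 (edgeR adjusted p = 0.456), while the first was kept at -0.83. Under the same correction changes upon OHT passed that otherwise did not, with -0.42 in shNT (edgeR adjusted p = 0.0446 against 0.614) and 0.26 in the libraries labelled shCDK12 (edgeR adjusted p = 0.00553 against 0.362). Its antisense neighbour H1-10-AS1 had at most 3.33 CPM.

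**Figure D2:**
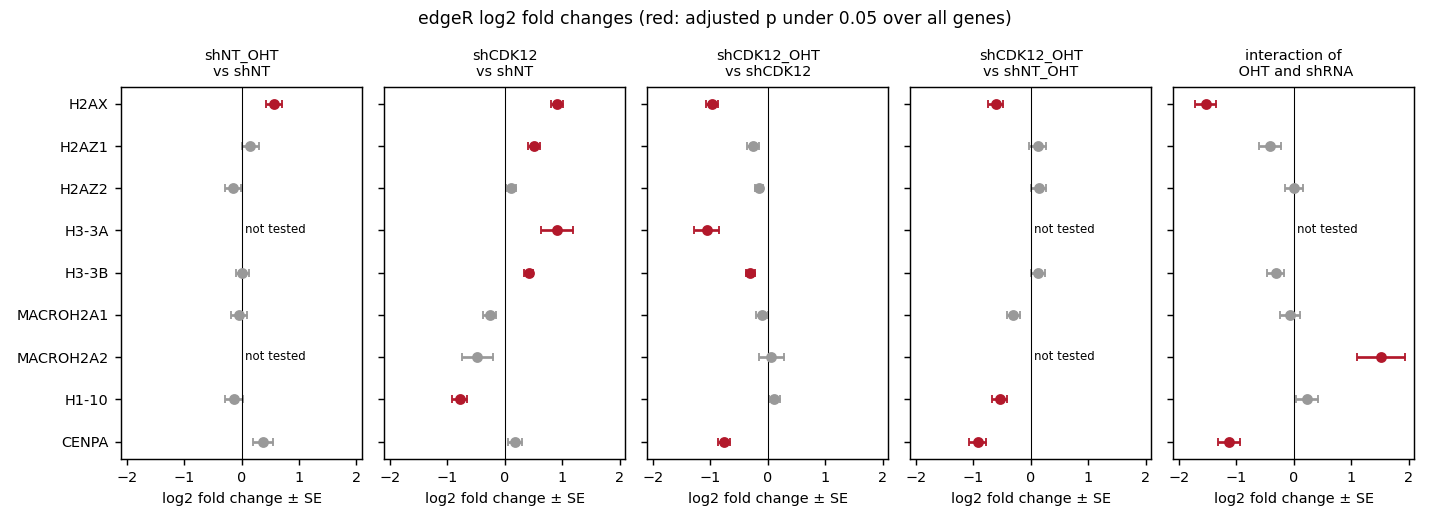
Points give edgeR log2 fold changes of the 9 genes with bars of 1 SE, in a panel for each pairwise comparison and for the interaction of OHT and shRNA, on a shared linear axis. Red marks an adjusted p under 0.05 over all genes tested, which holds for H2AX in 5 of 5 panels and for neither H2AZ2 nor MACROH2A1, and genes under the count filter are marked as not tested.

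Read by comparison, OHT in shNT asks what activation of MycER changes under the control shRNA. Of the 9 genes 7 were tested, and 1 passed, H2AX, where 17.9% of all 9994 genes tested did (9.37% higher and 8.49% lower). Libraries did not overlap for H2AX, which was higher, and for MACROH2A1 and MACROH2A2, which were lower, beside 36.2% of the genes tested (17.2% higher and 19.0% lower). MACROH2A1 differed by -0.04 there (edgeR adjusted p = 0.857), with SDs of 1.31 and 1.15 CPM in the groups. The median log2 fold change of the 7 was 0.01, beside -0.03 over all genes.

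The comparison of shCDK12 with shNT addresses the shRNA itself without OHT. All 9 genes were tested and 5 passed, beside 62.5% of all 11444 genes tested. H2AX, H3-3A, H2AZ1 and H3-3B were higher, with folds of 1.88, 1.88, 1.42 and 1.33, where 29.8% of all genes were, and H1-10 was lower with a fold of 0.579, where 32.8% were. Libraries did not overlap for these 5 and for MACROH2A1, which was lower, beside 64.9% of the genes tested (31.0% higher and 33.9% lower). CENPA, H2AZ2 and MACROH2A2 overlapped, with 0.19 (edgeR adjusted p = 0.186), 0.11 (edgeR adjusted p = 0.265) and -0.48 (edgeR adjusted p = 0.125). Without H3-3A and MACROH2A2, the members with fewest reads, 4 of 7 passed. The share of members past the threshold was thus near that of all genes.

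Upon OHT in the libraries labelled shCDK12, 4 of 9 genes passed, or 3 of 7 without H3-3A and MACROH2A2, beside 49.2% of all 12389 genes tested. H3-3A, H2AX, CENPA and H3-3B were lower, with folds of 0.478, 0.511, 0.589 and 0.811, beside 21.6% of all genes lower and 27.6% higher. Libraries did not overlap for these 4 and for H2AZ2, lower at -0.15 (edgeR adjusted p = 0.107), beside 56.5% of the genes tested (31.8% higher and 24.8% lower). This comparison shares the libraries labelled shCDK12 with the one before, so a high value in them enters both with opposite sign.

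With OHT in both arms, shCDK12+OHT against shNT+OHT, 3 of the 7 genes tested passed, beside 46.3% of all 11120 genes. CENPA, H2AX and H1-10 were lower, with folds of 0.526, 0.654 and 0.687, beside 22.2% of all genes lower and 24.0% higher. Libraries did not overlap for these 3 and MACROH2A1, which were lower, and for H3-3A and MACROH2A2, which were higher and not tested, beside 55.9% of the genes tested (29.4% higher and 26.5% lower). H2AZ1, H2AZ2 and H3-3B were at 0.12, 0.14 and 0.12 and overlapped. With the length and GC trends removed, H2AZ1 (0.35, edgeR adjusted p = 0.0151), H3-3B (0.34, edgeR adjusted p = 0.0136) and MACROH2A1 (-0.32, edgeR adjusted p = 0.0229) passed, and CENPA stayed at -0.81.

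The interaction of OHT and shRNA tests whether the response to OHT differs between the arms. Among 8 genes tested 3 passed, or 2 of 7 without MACROH2A2, beside 46.1% of all 11299 genes. The response was lower in the libraries labelled shCDK12 for H2AX and CENPA, beside 20.0% of all genes, and higher for MACROH2A2, beside 26.1%. H2AZ1 was at -0.41 (SE 0.19, edgeR adjusted p = 0.0810) and H3-3B at -0.32 (SE 0.15, edgeR adjusted p = 0.0985). For H1-10 the value was 0.23 (edgeR adjusted p = 0.350), and 0.68 with the length and GC trends removed (edgeR adjusted p = 0.00217). The median of all genes was 0.10 here, and -0.02 with upper-quartile normalization.

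The 3 pairs of related genes were also set against each other within each library, which removes scaling between libraries where counts are high. With few reads, as for H3-3A and MACROH2A2, the 0.5 added to each count leaves some dependence on depth. Log2 ratios of counts, with 0.5 added to each, were compared between groups by an exact two-sided permutation test, whose smallest p with 3 libraries against 3 is 0.1, so that none of the 12 comparisons could pass. MACROH2A1 exceeded MACROH2A2 by 3.00, 3.25 and 2.70 in shNT and by 3.97, 4.47 and 4.94 in shNT+OHT. The ratios were 2.99, 3.19 and 3.51 in the libraries labelled shCDK12 and 3.17, 2.84 and 3.27 in those labelled shCDK12+OHT. On the linear scale the group means were 7.91, 22.0, 9.39 and 8.54 to 1, and the shNT+OHT libraries were above all 9 others, by 1.47 against shNT, while shCDK12+OHT less shNT+OHT came to -1.36 (exact p = 0.1 for each, 0.2 adjusted over the 12).

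H3-3A counts were far below those of H3-3B, with mean log2 ratios of -6.87 ± 0.22 (SD, n = 3) in shNT, -7.69 ± 0.56 in shNT+OHT, -6.31 ± 0.20 in the libraries labelled shCDK12 and -7.08 ± 0.11 in those labelled shCDK12+OHT. The ratio did not overlap in 3 of the 4 comparisons, at -0.83 upon OHT in shNT, 0.55 for shCDK12 against shNT and -0.77 upon OHT in the libraries labelled shCDK12 (exact p = 0.1 for each). The last was -0.45 after thinning all libraries to the smallest total. The H2AZ1 to H2AZ2 ratio averaged -0.49 ± 0.12 in shNT, -0.19 ± 0.32 in shNT+OHT, -0.10 ± 0.19 in the libraries labelled shCDK12 and -0.20 ± 0.16 in those labelled shCDK12+OHT. Of the 4 comparisons made, only that of shCDK12 with shNT had no overlap, at 0.39 (exact p = 0.1).

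**Figure D3:**
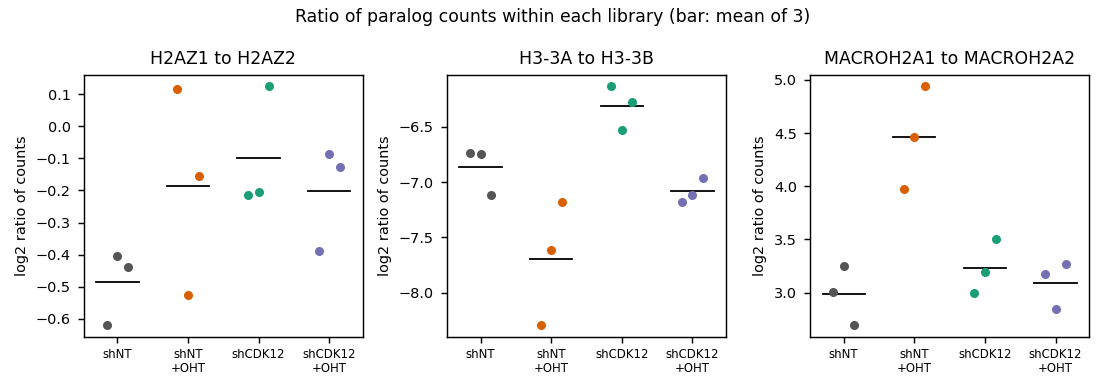
Each panel plots the log2 ratio of counts of 2 related genes in the 12 libraries (linear axis in log2 units that does not start at 0), with 1 point per library and a bar at the mean of 3. The MACROH2A1 to MACROH2A2 ratio averaged 4.46 in shNT+OHT against 2.98 to 3.23 in the other groups.

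Promoter sequences are shown for 5 members that passed in at least 1 comparison, to set their core elements side by side. They were read from RefSeq windows of 250 bases before to 50 bases after each start (GRCh38.p14), which exist for 9 of 9 members, with 13 windows in all. The windows were searched for TATAAA on the sense strand starting 35 to 25 bases before the start, for CCAAT on either strand (ATTGG where it is reversed), for the E-box CACGTG to which Myc and its partner Max bind, and for TTTGAA, an element of many cell-cycle promoters, on either strand (TTCAAA where it is reversed). Capitals mark these motifs in the stretches below, each of which runs 5′ to 3′ and ends at the base before the start. The promoters of H2AX at chr11:119095466-119095635, H2AZ1 at chr4:99950276-99950465, H3-3B at chr17:75779780-75780004 and H1-10 at chr3:129316287-129316346 are on the minus strand, and that of CENPA at chr2:26785846-26786055 is on the plus strand.
H2AX: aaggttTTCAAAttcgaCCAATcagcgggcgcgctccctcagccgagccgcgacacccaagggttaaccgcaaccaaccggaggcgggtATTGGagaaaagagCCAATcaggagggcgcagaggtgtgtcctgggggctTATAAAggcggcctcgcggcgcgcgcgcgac
H2AZ1: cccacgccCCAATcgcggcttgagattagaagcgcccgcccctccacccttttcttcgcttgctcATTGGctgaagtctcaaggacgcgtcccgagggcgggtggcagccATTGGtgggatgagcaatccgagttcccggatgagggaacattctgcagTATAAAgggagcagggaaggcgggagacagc
H3-3B: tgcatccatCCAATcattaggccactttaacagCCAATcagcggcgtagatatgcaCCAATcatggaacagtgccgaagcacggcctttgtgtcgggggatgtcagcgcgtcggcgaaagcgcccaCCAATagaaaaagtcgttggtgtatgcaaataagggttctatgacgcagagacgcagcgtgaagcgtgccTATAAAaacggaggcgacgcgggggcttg
H1-10: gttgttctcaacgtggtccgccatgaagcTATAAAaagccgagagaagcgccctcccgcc
CENPA: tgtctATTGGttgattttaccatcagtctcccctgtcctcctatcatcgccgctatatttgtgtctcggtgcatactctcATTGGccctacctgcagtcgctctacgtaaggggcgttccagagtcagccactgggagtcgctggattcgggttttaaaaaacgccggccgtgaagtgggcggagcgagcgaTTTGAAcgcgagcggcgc

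TATAAA stood in this place in H2AX, H2AZ1, H3-3B and H1-10, beginning 29 to 31 bases before the start, and in 2.17% of all 35116 windows. At least 2 copies of CCAAT were in the whole windows of H2AX (4 copies), H2AZ1 (3), H2AZ2 (4), H3-3B (4), CENPA (2) and 1 of the 2 windows of MACROH2A1 (2), and in 10.8% of all windows. Both features were present in H2AX, H2AZ1 and H3-3B and in 0.299% of all windows. H3-3A has neither feature in any of its 4 windows, and H1-10 has TATAAA and 0 copies of CCAAT. As the members shown were chosen by their tests, the motifs cannot bear on the direction of those results. TTTGAA was in CENPA, H2AZ1 and H2AX and in 15.2% of all windows. CACGTG was in 0 of the 13 windows of the members and in 7.26% of all. A match of these letters describes the sequence only.

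The proteins that carry and place these histones were read as lists, whose counts stand beside the shares of all genes tested that passed, 17.9% upon OHT in shNT, 62.5% for shCDK12 against shNT, 49.2% upon OHT in the libraries labelled shCDK12, 46.3% between the arms with OHT and 46.1% in the interaction. For H3.3 the list has 8 genes. Of these DAXX and ATRX, whose products can act together in its deposition at telomeres, moved apart upon OHT in shNT. DAXX was at 0.55 (SE 0.15, edgeR adjusted p = 0.0192) and ATRX at -0.58 (SE 0.18, edgeR adjusted p = 0.0346). Labelled RNA does not show whether a working protein is made from either gene in these cells. In the libraries labelled shCDK12 2 of 8 were higher and 1 lower than in shNT, and upon OHT the 3 that passed were lower, DAXX by -0.42 and HIRA, the H3.3 chaperone of transcribed genes, by -0.46. Between the arms with OHT 2 were higher, UBN2 by 0.73 and ASF1A by 0.67, and 1 lower. In the interaction 3 were higher and 2 lower, among them DAXX at -0.98 and ATRX at 0.79.

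The H2A.Z list of 19 genes holds subunits of the exchange complexes SRCAP and TIP60 and the chaperone ANP32E. Upon OHT in shNT the 3 of 18 tested that passed were higher, among them the shared ATPases RUVBL2 (0.97, SE 0.19, edgeR adjusted p = 0.00387) and RUVBL1 (0.95, SE 0.23, edgeR adjusted p = 0.0124), while H2AZ1 and H2AZ2 themselves did not pass. Counts were 6 higher and 4 lower of 19 for shCDK12 against shNT, 1 and 3 upon OHT in the libraries labelled shCDK12, 2 and 6 with OHT in both arms, and 5 lower in the interaction. RUVBL1 was at -1.88 and RUVBL2 at -1.12 in shCDK12+OHT against shNT+OHT.

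Of 9 genes for loading or binding CENP-A, 1 of 7 tested was higher upon OHT in shNT, the kinetochore gene CENPT (0.61, SE 0.17, edgeR adjusted p = 0.0258). Upon OHT in the libraries labelled shCDK12, 8 of 9 were lower, with a median of -0.50 beside 0.05 over all genes. HJURP, the CENP-A chaperone, fell by 0.50 (SE 0.08, edgeR adjusted p = 4.40e-05) and MIS18A, which licenses loading, by 0.69 (SE 0.11, edgeR adjusted p = 5.17e-05). Their summed level was 600.4 to 614 CPM in those 3 libraries labelled shCDK12+OHT and 795 to 977 CPM in the other 9. CENPA and its loading genes were thus low in the same libraries, which are also those with the low G2 and mitosis markers.

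For 14 genes that modify or read phosphorylated H2AX the counts were 1 higher and 2 lower upon OHT in shNT, where MDC1, which binds the modified tail, was higher by 0.43 (SE 0.13, edgeR adjusted p = 0.0369) and the kinase ATM lower at -0.76 (SE 0.20, edgeR adjusted p = 0.0193). For shCDK12 against shNT 2 were higher and 5 lower, beside 29.8% and 32.8% of all genes, with BRCA1 at -1.14 (SE 0.13, edgeR adjusted p = 6.88e-08). Upon OHT in the libraries labelled shCDK12 2 were higher and 5 lower, with MDC1 at -0.68. Between the arms with OHT 2 were higher and 6 lower, and in the interaction 1 and 3, with MDC1 at -1.11.

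The replication-dependent histone genes, 64 rows of the table, were set beside the 9 members. Not every variant moved apart from them, as H1-10 and, outside the members, H2AJ were lower in the libraries labelled shCDK12 than in shNT. Their sum ran from 15283 to 16838 CPM in shNT, 15601 to 19539 in shNT+OHT, 6464 to 7091 in the libraries labelled shCDK12 and 6375 to 7472 in those labelled shCDK12+OHT, without overlap between the shRNAs. For shCDK12 against shNT, 30 of 37 tested were lower and 4 higher, with a median of -1.27, beside 32.8% of all genes lower and 29.8% higher. Of the 9 members 4 were higher and 1 lower, with a median of 0.19. Without H3-3A and MACROH2A2 3 of 7 were higher and 1 lower, so the members passed at near the share of all genes, 62.5%. With OHT in both arms 30 of 35 were lower and 4 higher, with a median of -1.67, beside 22.2% of all genes lower and 24.0% higher. OHT itself left 3 higher and 4 lower of 32 in shNT, beside 9.37% and 8.49% of all genes. It left 9 higher and 9 lower of 36 in the libraries labelled shCDK12, beside 27.6% and 21.6%. H2AC20 was at -2.38 (SE 0.09, edgeR adjusted p = 3.08e-17) and -2.85 (SE 0.14, edgeR adjusted p = 1.00e-06) in the 2 comparisons of shRNAs. Many of these genes are near-identical copies, so their single values are uncertain. Markers of G1/S and S phase did not follow them: 20 such genes summed to 2122 to 2351 CPM in shNT, 2115 to 2281 in shNT+OHT, 2872 to 2906 in the libraries labelled shCDK12 and 2015 to 2134 in those labelled shCDK12+OHT. In shCDK12 against shNT 11 of these 20 markers were higher and 2 lower, beside 29.8% and 32.8% of all genes. Upon OHT in the libraries labelled shCDK12 the 15 that passed were lower, beside 21.6% of all genes. Of 7 genes for replication-coupled assembly 0 passed upon OHT in shNT with edgeR, at adjusted or unadjusted p, or with DESeq2. The share of all genes there was 17.9% with edgeR. In shCDK12 against shNT 1 was higher and 3 lower, beside 29.8% and 32.8%, with the chaperone NASP at 0.76 and ASF1B at -1.18.

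**Figure D4:**
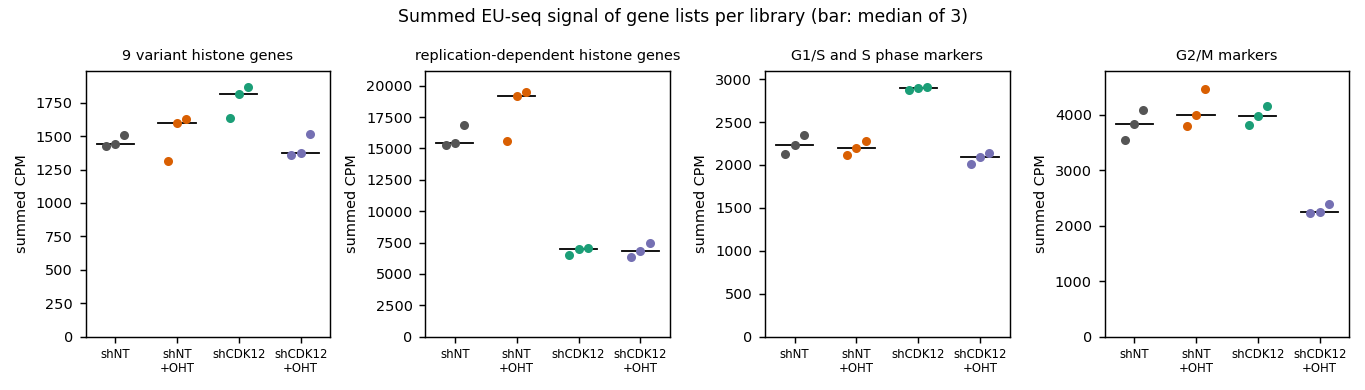
Each panel plots the summed normalised level (CPM, linear axis from 0) of a list of genes in the 12 libraries, with 1 point per library and a bar at the median of 3. The replication-dependent histone genes stayed at or under 7472 CPM in the 6 libraries of the CDK12 shRNA and at or above 15283 in the others, while the sum of the 9 variants stayed between 1311 and 1868 CPM in all 12.

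To describe which genes shared a member's pattern, log2 CPM over the 12 libraries was correlated with that of each gene with a mean normalised count above 100, and the top 2 were taken. All points share library depth and the 4 groups, so high values are common and carry no test. H2AX was most like HSP90B1 (r = 0.96), a chaperone of the endoplasmic reticulum, and PAICS (r = 0.95), an enzyme of purine synthesis. H2AZ1 was nearest to ROBO1 (r = 0.90) and LDHA (r = 0.88), and H2AZ2 to CD46 (r = 0.96) and RBBP4 (r = 0.96), itself a histone-binding protein. H3-3B was nearest to USP3 (r = 0.95) and IFRD1 (r = 0.95), and H3-3A to DCAF16 (r = 0.95) and SNORA26 (r = 0.93). CENPA was nearest to DDX55 (r = 0.96) and TRIM14 (r = 0.96), MACROH2A1 to DENND4B (r = 0.91) and SP2 (r = 0.91), MACROH2A2 to KIFBP (r = 0.92), and H1-10 to RAD52 (r = 0.96) and CCAR1 (r = 0.94). No member was among the nearest 2 genes of another.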

How the data were processed

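The authors deposited 1 table of raw counts per gene for 23434 human genes, and the submitters' processing notes name STAR 2.7.5c, featureCounts 1.4.5-p1 and the genome build hg19. The annotation, the use of strand and the treatment of reads with several matches are not given in the sources used here. The table holds no mouse rows, so scaling by the added murine RNA was not done. Symbols were matched by Entrez identifier to RefSeq (GRCh38.p14) for 23284 rows. Every library was assigned by its title, the labels name no batch, and 0 columns were left unused.

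Counts were tested with edgeR 4.0.16 (R 4.3.3) by the quasi-likelihood test with TMM normalization, on genes with a mean normalised count above 32 in the fit, with Benjamini-Hochberg adjustment over all genes tested at 0.05. Pairwise fits held 6 libraries and the interaction 12. CPM are TMM-normalised. The script was tested on simulated counts. Alternatives were DESeq2 1.42.0, upper-quartile normalization, no filter, 1 fit of all 12 libraries, a replicate block, leaving out each library, thinning every library to 1251695 counts, removal of length and GC trends by loess and, for ratios, a pseudocount of 1. Exon lengths and copies of 50-base windows come from GENCODE v44 and hg38.

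The text names all 9 members, CDK12, cell type markers, overlapping neighbours, the 2 nearest genes of each member, and from each list at most the 2 genes past the threshold with the smallest adjusted p in a comparison; some genes that this rule names are not reported here. Members and lists were chosen with earlier results of these data known, and no pattern here is independent of them.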

Additional observations from a re-analysis of the deposited data

Results flagged for a closer look

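For 3 of the 8 members tested the 2 shRNA arms differed in their change upon OHT, by the interaction term that edgeR gave in a fit of all 12 libraries, beside 46.1% of all genes tested. H2AX differed by -1.54 on the log2 scale (adjusted p = 1.13e-06), being higher upon OHT in 3 of 3 shNT libraries and lower in 3 of 3 libraries labelled shCDK12. Leaving out each library gave -1.64 to -1.45.

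CENPA differed by -1.13 (adjusted p = 0.000103 by the same test), from -1.26 to -1.04 with each library left out. It was lower upon OHT in 3 of 3 libraries labelled shCDK12, while under the control shRNA the groups overlapped.

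MACROH2A2 differed by 1.53 (adjusted p = 0.00558 by the same test), from 1.24 to 1.93 with each library left out. The shNT+OHT libraries, which hold 20, 5 and 11 reads of it, were below all others. It passed the count filter of this fit through the other groups and was under it in both pairwise fits with shNT+OHT, so the value is best read as a description, and with no filter it was 1.53 (adjusted p = 0.00572).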

How the results depend on the processing

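Of 40 member results with a test, 16 passed the threshold. Of these 10 passed under every alternative. A further 3 (H3-3A in 2 comparisons and the MACROH2A2 interaction) were below the count filter in at least 1 alternative and passed in the rest. For H3-3A against shNT and for MACROH2A2 the filter was passed only through the higher groups, so that count gives these results no support. None of the 16 changed direction in an alternative that gave a value. The 3 lost in at least 1 are H2AX upon OHT in shNT and, with OHT in both arms, H2AX and H1-10, as given above; the length and GC correction ended each of them. Of 24 that did not pass, 16 did so in at least 1 alternative and 13 changed sign in at least 1. The cause was not tested. Depth limits H3-3A and MACROH2A2 most, with down to 4 and 5 reads in a library, and H3-3A had no test in 3 of the 5 fits.

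The number of members past the threshold upon OHT in shNT was 1, and 2 with no filter (H2AX and MACROH2A2), 2 with all 12 libraries in one fit, and 0 to 2 with 1 library left out, the lowest when shNT replicate 1 or 2 was dropped and the highest when it was shNT+OHT replicate 1 or 2. For shCDK12+OHT against shNT+OHT it was 3, and 5 with all 12 libraries and 3 to 5 with 1 left out (5 without shNT+OHT replicate 2). In the interaction it was 3, and 5 with DESeq2, 5 with upper-quartile normalization and 3 to 5 with 1 left out (5 without shNT+OHT replicate 1). Over all genes, calls upon OHT in shNT were 1784, and 3222 with all 12 libraries in one fit.

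Changes of sign among results that did not pass were these. Upon OHT in shNT, H2AZ1 was at -0.063 and H3-3B at -0.18 with length and GC trends removed, MACROH2A1 at 0.012 after thinning, and with 1 library left out H2AZ2 ran from -0.24 to 0.00055, H3-3B from -0.037 to 0.15 and H1-10 from -0.26 to 0.081. Upon OHT in the libraries labelled shCDK12, MACROH2A2 was at -0.011 with DESeq2, -0.0026 with upper-quartile normalization, -0.045 with trends removed and -0.058 to 0.27 with 1 left out, and H1-10 at -0.15 after thinning. With OHT in both arms, H2AZ2 was at -0.017 after thinning, and with 1 left out H2AZ1 ran from -0.013 to 0.22, H2AZ2 from -0.025 to 0.22 and H3-3B from -0.015 to 0.18. In the interaction, H2AZ2 was at -0.051 with DESeq2, -0.11 with upper-quartile normalization, -0.13 after thinning, -0.013 with trends removed and -0.14 to 0.12 with 1 left out, MACROH2A1 at -0.19 to 0.025 with 1 left out, and H1-10 at -0.051 after thinning. Ratios moved after thinning: H2AZ1 to H2AZ2 to 0.093 and H3-3A to H3-3B to -0.45 upon OHT in the libraries labelled shCDK12, and MACROH2A1 to MACROH2A2 to -0.17 for shCDK12 against shNT and 0.15 upon OHT in the former.

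With the replicate number as a block, 1, 6, 5, 3 and 3 members passed in the 5 tests, against 1, 5, 4, 3 and 3 without it. Deviations from group means correlated at -0.15 to 0.45 between libraries of the same number (8 of 18 pairs over 0.1) and at -0.48 to 0.14 otherwise (4 of 36), and in 0 of the 4 comparisons were all 3 pairs over 0.1, so the numbers were not taken to pair the libraries.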

Other observations

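General histone chaperones, a list of 9 genes, had 7 genes higher and 2 lower in the libraries labelled shCDK12 than in shNT by edgeR's test, beside 29.8% and 32.8% of all genes. The shares of all genes that passed in either direction were 17.9% upon OHT in shNT, 49.2% upon OHT in the libraries labelled shCDK12, 46.3% between the arms with OHT and 46.1% in the interaction. NCL, the nucleolar protein nucleolin, was higher by 0.79 (SE 0.08, adjusted p = 3.14e-09) and SUPT16H, a subunit of the FACT complex, lower at -0.81 (SE 0.11, adjusted p = 4.37e-07). Upon OHT in shNT the 3 that passed were higher, among them NCL by 0.81 (SE 0.10, edgeR adjusted p = 0.000103) and NPM1 by 0.43 (SE 0.13, edgeR adjusted p = 0.0299). Upon OHT in the libraries labelled shCDK12 the 6 that passed were lower, NCL by -0.83 and SSRP1, the other FACT subunit, by -0.59. With OHT in both arms 1 was higher and 4 lower, and in the interaction the 5 that passed were lower, with NCL at -1.65 (SE 0.12, edgeR adjusted p = 2.10e-09). The summed level of the list ran from 1652 to 1825 CPM in shNT, 2344 to 2474 in shNT+OHT, 2494 to 2527 in the libraries labelled shCDK12 and 1704 to 1796 in those labelled shCDK12+OHT.

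Among further variant histone genes, H2AJ was lower in the libraries labelled shCDK12 than in shNT, at -1.01 (SE 0.23, edgeR adjusted p = 0.000440). Only 2 of these further genes were tested there, and 0 were higher and 2 lower, beside 29.8% and 32.8% of all genes.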
